A study of Homo sapiens with 6 samples.

Results

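The 8 genes described here encode the nuclear lamins, proteins of the inner nuclear membrane, and a DNA-bridging protein that some of these membrane proteins bind. They are LMNA, LMNB1, LMNB2, LBR, TMPO, EMD, BANF1 and LEMD3. They were chosen by symbol for what their proteins do, though with earlier results of these data known. The gene lists used below were also chosen with those results known. Each member was found by its Ensembl identifier among the 62492 genes listed for every library. All 8 had enough reads to be among the 17000 genes tested. The RNA-seq libraries were made from polyadenylated RNA of HCT116 cells, a human colorectal carcinoma line. In the siControl group (labelled genotype WT) the cells received a control siRNA, and in the siNONO group (labelled NONO knockdown) an siRNA against NONO, an RNA-binding protein of paraspeckles. Both groups received 20 nM of siRNA with a lipid reagent, lipofectamine RNAiMAX. Each group had 3 libraries, labelled Sets 1 to 3, and the series calls these biological replicates without saying how the cultures were kept apart. A single siNONO duplex was used, so what it does by lowering NONO and what it does otherwise cannot be told apart in these libraries.

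The nuclear lamina is a meshwork of intermediate filament proteins under the inner nuclear membrane. B-type lamins keep a lipid anchor at their C terminus and stay at the membrane, whereas the A-type lamins, lamin A and lamin C, arise from LMNA by alternative splicing and are also found inside the nucleus. Inner membrane proteins such as LBR, emerin and the lamina-associated polypeptides bind lamins, and those with a LEM domain bind the small DNA-bridging protein that BANF1 encodes. The whole structure is taken apart in mitosis and rebuilt around the daughter chromosomes.

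The last 30 coding bases of the transcripts for lamin A, lamin B1 and lamin B2 on GRCh37 are shown because this end carries the site of lipid attachment, called the CaaX box, and they were read from the genome with the GENCODE version 44 annotation. Capitals mark the last 4 codons before the stop codon.
LMNA, lamin A (chr1:156108543-156108894, plus strand, across an exon junction): acccagagcccccagaacTGCAGCATCATG
LMNB1, lamin B1 (chr5:126171924-126171953, plus strand): agagcatccaatagaagcTGTGCAATTATG
LMNB2, lamin B2 (chr19:2430912-2430941, minus strand): aggaccacctcaagaggcTGCTACGTGATG
The first of the 4 codons is TGC in lamin A and lamin B2 and TGT in lamin B1, and both codons stand for the cysteine that is farnesylated. The deposited tables give LMNA as 1 gene, so lamin A and lamin C are counted together in every value below.

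Libraries held between 21765393 and 32659002 estimated counts. The targeted gene came first. NONO had 496, 495 and 516 CPM (counts scaled to library size with edgeR's TMM factors) in siControl Sets 1 to 3 and 89.5, 95.5 and 100.4 CPM in siNONO, which left 18.9% of the siControl level. The libraries were also compared with markers of the line and of other cell types. The epithelial markers EPCAM and KRT18 were present in every library, and their log2 fold changes were 0.32 and 0.06. Of the 8 epithelial markers 7 could be tested, and 2 of them rose and 0 fell by the edgeR test described below. VIL1, the marker not tested, was nearly absent, with at most 7.14 estimated counts in any library. The summed level of the fibroblast markers was 16.5 to 19.2 TPM (a transcript level that is also scaled for transcript length) in siControl and 16.4 to 18.4 TPM in siNONO. Nearly all of it was COL1A1, at 16.4 to 19.0 TPM in siControl. COL1A2 had 0 counts in every library, and DCN, LUM and PDGFRB each had at most 0.32 TPM. The endothelial markers, without PECAM1, which had no matching gene, summed to at most 0.51 TPM in any library. The leukocyte markers summed to 3.20 to 6.04 TPM in siControl and 6.72 to 7.36 TPM in siNONO, and this sum was mostly CD68, a lysosomal protein, which rose with a log2 fold change of 1.40 (adjusted p = 1.80e-05 by the same edgeR test), while the T-cell marker CD3E had at most 1 count in any library. The part of these markers in the results below was not tested. In bulk RNA, fewer cells of a kind and less RNA per cell cannot be told apart.

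In siNONO-treated cells, 5 of the 8 transcripts fell, LMNB1, TMPO, LEMD3, LBR and LMNB2. One direction did not hold for the whole group, since EMD rose and LMNA and BANF1 did not pass the test. The largest change was in LMNB1, which went down to 61.9% of its siControl level, and the smallest that passed was in LMNB2, at 88.1%. The test was the quasi-likelihood test of edgeR, which took the Set as a block, and p-values were adjusted by Benjamini-Hochberg over the 17000 genes. A gene whose adjusted p did not exceed 0.05 was called. By this rule 46.6% of all tested genes were called, 23.2% as higher and 23.4% as lower. The CPM of the 2 groups did not overlap for 6 of the 8 members, while this was so for 47.8% of all tested genes. The median log2 fold change was -0.25 over the members and -0.00 over all tested genes.

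**Figure D1:**
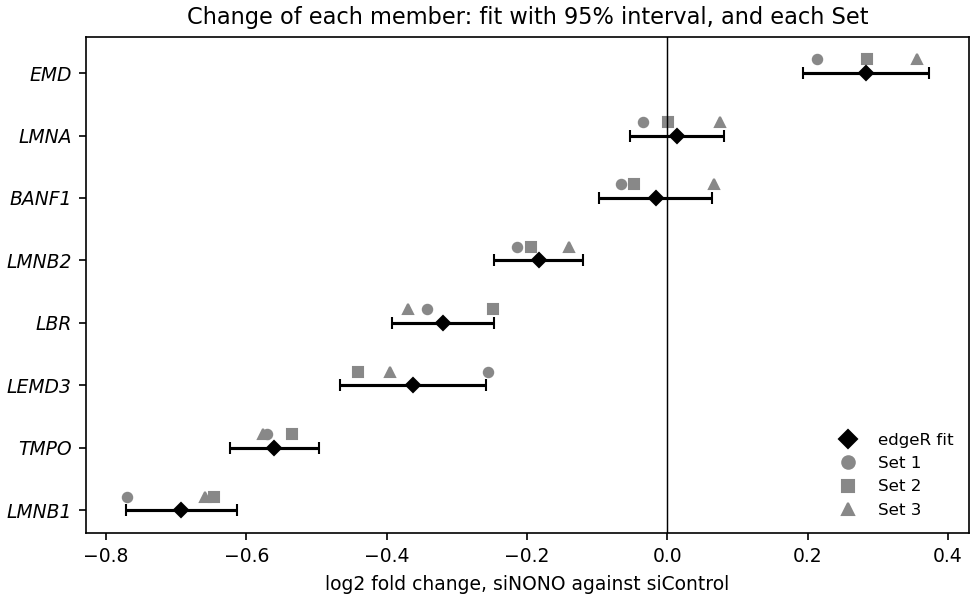
log2 fold change (x axis) of each of the 8 members (y axis) in siNONO against siControl. Diamonds with bars give the edgeR estimate with its 95% interval over 3 libraries per group, and the grey symbols above them give the difference within each Set. The intervals of LMNB1, TMPO, LEMD3, LBR and LMNB2 lie below 0, that of EMD lies above 0, and those of LMNA and BANF1 include 0.

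Among the B-type lamins, LMNB1 had the larger change. LMNB1 (ENSG00000113368.12_4) lies on the plus strand of chromosome 5 of GRCh37, from 126112315 to 126172712, and encodes lamin B1. Its level was 145, 154 and 136 CPM in siControl Sets 1 to 3 and 85.0, 98.2 and 86.3 CPM in siNONO. All 3 siNONO libraries were below all 3 siControl libraries, by more than the spread within either group. The mean went from 145 ± 8.68 to 89.9 ± 7.24 CPM (SD, n = 3 per group). This is a log2 fold change of -0.69 (standard error 0.0361, Benjamini-Hochberg adjusted p = 1.50e-08 in edgeR's quasi-likelihood test), and it was -0.77, -0.65 and -0.66 in Sets 1 to 3. This placed LMNB1 at the percentile 4.38 of the log2 fold changes of all tested genes, counted from the lowest.

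LMNB2 (ENSG00000176619.13_7), the gene of lamin B2, lies on the minus strand of chromosome 19, from 2427636 to 2456957. It had 368, 378 and 397 CPM in siControl and 317, 330.5 and 360.0 CPM in siNONO. The highest siNONO library lay just below the lowest siControl library, both groups being highest in Set 3. It fell by 0.18 on the log2 scale (standard error 0.0294, adjusted p = 0.000227 by the same edgeR quasi-likelihood test), with -0.21, -0.19 and -0.14 in Sets 1 to 3. The 95% interval of the log2 fold change, from -0.25 to -0.12, did not meet that of LMNB1, from -0.77 to -0.61.

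LMNA (ENSG00000160789.20_6), on the plus strand of chromosome 1 from 156052364 to 156109872, encodes the A-type lamins, which stiffen the nucleus. Its level was 374, 371 and 386 CPM in siControl and 365, 371 and 407 CPM in siNONO. The groups overlapped, and the Sets went in different directions, with log2 fold changes of -0.03, 0.00 and 0.08. LMNA did not pass the test (log2 fold change 0.01, standard error 0.0307, adjusted p = 0.752 by edgeR's quasi-likelihood test). The 95% interval ran from -0.05 to 0.08 on the log2 scale, so a change of the size seen in LMNB1 or LMNB2 lay outside it.

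The balance of A-type to B-type lamin transcripts was therefore different between the groups within each library, where no scaling between libraries enters. For each LMNB1 transcript there were 2.79, 2.72 and 3.17 LMNA transcripts by TPM in siControl Sets 1 to 3 and 4.66, 3.96 and 4.72 in siNONO. The groups did not overlap, and the mean ratio went from 2.89 ± 0.245 to 4.45 ± 0.424 (SD, n = 3), a log2 difference of 0.62. The ratio of LMNA to LMNB2 was lower in every siControl library, at 1.58 to 1.81, than in any siNONO library, at 1.88 to 2.09. The ratio of LMNB1 to LMNB2 went the other way, from 0.587 ± 0.0802 to 0.444 ± 0.0290 (SD, n = 3). An exact two-sided permutation test over the 6 libraries gave p = 0.1 for each of the 3 ratios, the smallest p that 3 against 3 libraries allow, so these differences cannot pass 0.05 by that test.

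**Figure D2:**
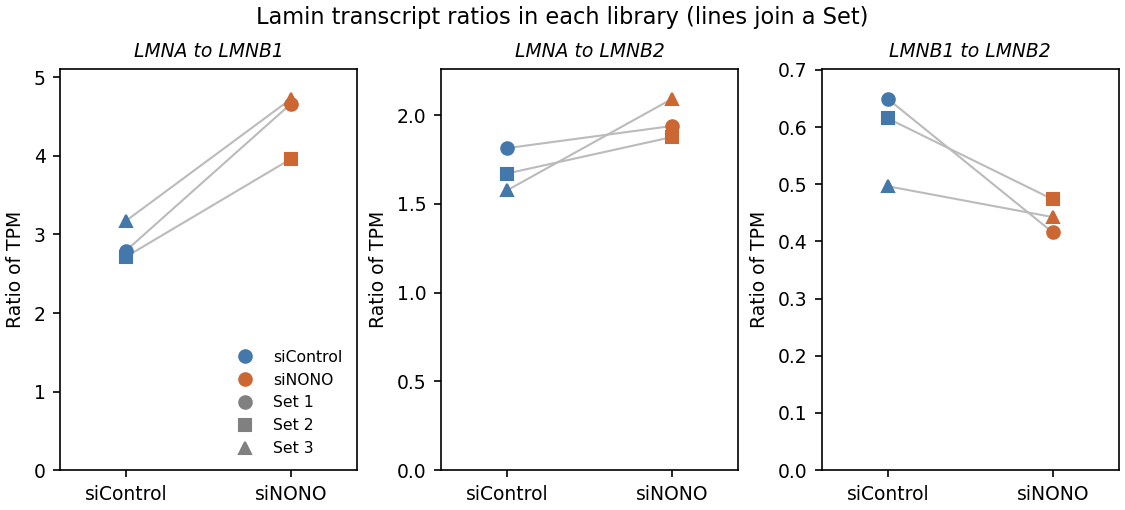
Ratio of TPM (y axis, starting at 0) for each pair of lamin genes in each siControl and siNONO library (x axis), with a line joining the libraries of a Set. LMNA to LMNB1 rises along all 3 lines, from between 2.72 and 3.17 to between 3.96 and 4.72, LMNA to LMNB2 rises along all 3, and LMNB1 to LMNB2 falls along all 3, least in Set 3.

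The size of the LMNB1 to LMNB2 difference was not the same in TPM and in counts, as TPM also takes in the lengths that RSEM gave both genes. In TPM, the log2 difference of this ratio was -0.64, -0.38 and -0.17 in Sets 1 to 3, whereas from the estimated counts alone it was -0.55, -0.45 and -0.52. RSEM's mean length of LMNB2, which weights the annotated transcripts by their estimated abundance, was 4041, 3805 and 3650 bases in siControl and 3800.4, 3752 and 4258 bases in siNONO. The length of LMNB2 overlapped between the groups and moved most in Set 3, while in Set 2 that of LMNB1, given below, moved more. For LMNA to LMNB1 the estimated counts gave log2 differences of 0.74, 0.65 and 0.73 in Sets 1 to 3. The LMNA to LMNB2 ratio was uneven in TPM, with log2 differences of 0.10, 0.17 and 0.41 in Sets 1 to 3. From the estimated counts they were 0.18, 0.20 and 0.22.

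RSEM's mean length of LMNB1 was lower in every siNONO library than in any siControl library. The mean length was 2533, 2582 and 2587 bases in siControl and 2527, 2429 and 2401 bases in siNONO. The ranges did not overlap, but Set 1 differed by only -6.09 bases against -153 and -187 in Sets 2 and 3, and the exact permutation test gave p = 0.1, its smallest value. Over the other members, the ranges of mean length overlapped between the groups for LMNA, LMNB2, LBR, TMPO, EMD and LEMD3. The ranges of BANF1 did not overlap either, but it differed by only 2.67 bases of 743. This difference turned to -1.23 bases when RSEM's effective length took the place of the length. How many of all tested genes did not overlap in mean length was not counted. Gene tables hold no values for single transcripts, so which transcripts made up these means was not analysed here.

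The LEM-domain proteins and their partner did not share a direction. TMPO (ENSG00000120802.13_6), on the plus strand of chromosome 12 from 98909357 to 98944129, encodes the lamina-associated polypeptides 2, which include a membrane form that binds B-type lamins and a soluble form that binds A-type lamins. It had 339, 329.7 and 296 CPM in siControl Sets 1 to 3 and 228, 228 and 199 CPM in siNONO. No siNONO library came near the siControl range, and Set 3 was the lowest in both groups. It fell by 0.56 on the log2 scale (standard error 0.0293, adjusted p = 1.52e-08 by edgeR's quasi-likelihood test), to 67.8% of the siControl level, and the Sets were close together at -0.57, -0.53 and -0.58.

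TMPO-AS1, a non-coding gene on the minus strand, overlaps the start of TMPO by 844 bases. It had 128, 105 and 63.7 estimated counts in siControl and 55.9, 49.9 and 45.3 in siNONO, against 5559 to 11173 for TMPO over the 6 libraries. It fell as well, with a log2 fold change of -0.98 (standard error 0.172, adjusted p = 0.000447 by edgeR's quasi-likelihood test). Libraries were made with a stranded kit, but the strand setting used for counting is not given in the sources used here, so reads in the overlap cannot be told apart between TMPO and TMPO-AS1. The TMPO pseudogene TMPOP2 had at most 2 estimated counts in any library.

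LEMD3 (ENSG00000174106.3_5), on the plus strand of chromosome 12 from 65563363 to 65642135, encodes MAN1, an inner membrane protein that binds SMAD proteins. Its level was 55.0, 60.8 and 51.6 CPM in siControl and 46.1, 44.8 and 39.2 CPM in siNONO. The groups did not overlap. It fell by 0.36 on the log2 scale (standard error 0.0478, adjusted p = 4.82e-05 by edgeR's quasi-likelihood test), and the Sets were less even than for TMPO, at -0.26, -0.44 and -0.39.

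EMD (ENSG00000102119.11_4), on the plus strand of chromosome X from 153607633 to 153609934, encodes emerin, which binds lamins and is absent in X-linked Emery-Dreifuss muscular dystrophy. It was the member that rose. Its level was 60.3, 57.2 and 58.9 CPM in siControl and 69.9, 69.7 and 75.4 CPM in siNONO. Every siNONO library was above every siControl library. It rose by 0.28 on the log2 scale (standard error 0.0412, adjusted p = 0.000108 by edgeR's quasi-likelihood test), or 122% of the siControl level, with 0.21, 0.28 and 0.36 in Sets 1 to 3. The neighbouring gene FLNA, which encodes the actin cross-linker filamin A, lies 4630 bases away on the minus strand and went in the other direction, with a log2 fold change of -0.68 (adjusted p = 1.04e-09 by the same edgeR test).

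BANF1 (ENSG00000175334.8_4), on the plus strand of chromosome 11 from 65769699 to 65771620, encodes the barrier-to-autointegration factor, the DNA-bridging protein bound by the LEM domain of emerin, MAN1 and the TMPO products. It had 103, 110.4 and 104 CPM in siControl and 98.8, 107 and 109 CPM in siNONO. The groups overlapped, and the log2 fold change of -0.02 did not pass the test (standard error 0.0369, adjusted p = 0.744 by edgeR's quasi-likelihood test). Its 95% interval ran from -0.10 to 0.06. BANF1 has processed pseudogenes, and those with any reads, BANF1P2 and BANF1P3, had at most 1 and 2.04 estimated counts in a library.

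LBR (ENSG00000143815.15_7), on the minus strand of chromosome 1 from 225589204 to 225616627, encodes the lamin B receptor, whose nucleoplasmic part binds B-type lamins and heterochromatin protein 1 and whose membrane part is a sterol reductase. Its level was 214, 206 and 191 CPM in siControl and 169, 173 and 148 CPM in siNONO. The groups did not overlap. It fell by 0.32 on the log2 scale (standard error 0.0334, adjusted p = 6.38e-06 by edgeR's quasi-likelihood test), and it was -0.34, -0.25 and -0.37 in Sets 1 to 3, which left 80.1% of the siControl level.

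Across genes, levels were compared in TPM, which is scaled for transcript length. In siControl the order from the highest was BANF1 at 276 ± 6.88 TPM, LMNA at 249 ± 7.62, TMPO at 174 ± 3.49, LMNB2 at 148 ± 13.7, EMD at 95.4 ± 6.29, LBR at 90.3 ± 2.30, LMNB1 at 86.4 ± 4.52 and LEMD3 at 18.9 ± 1.57 TPM (SD, n = 3). EMD and LBR, and LBR and LMNB1, overlapped in this order, and the other neighbours did not. In siNONO the order was BANF1 at 256 ± 10.6 TPM, LMNA at 234 ± 10.8, LMNB2 at 119 ± 1.62, TMPO at 119 ± 10.6, EMD at 112 ± 8.04, LBR at 70.1 ± 5.57, LMNB1 at 52.9 ± 4.09 and LEMD3 at 14.2 ± 1.67 TPM (SD, n = 3). TMPO, above LMNB2 and EMD in siControl, overlapped with both in siNONO, as BANF1 did with LMNA. Each member's mean TPM was lower in siNONO except that of EMD, and the TPM of the groups overlapped for LMNA. For BANF1 the TPM did not overlap, at 270.7 to 283 in siControl and 246 to 267 in siNONO, although its CPM did. On log2(TPM + 1) the median log2 fold change of all tested genes was also below 0, at -0.07. BANF1 was at -0.10 and LMNA at -0.09 on that scale, and limma called neither. How many of all tested genes did not overlap in TPM was not counted.

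**Figure D3:**
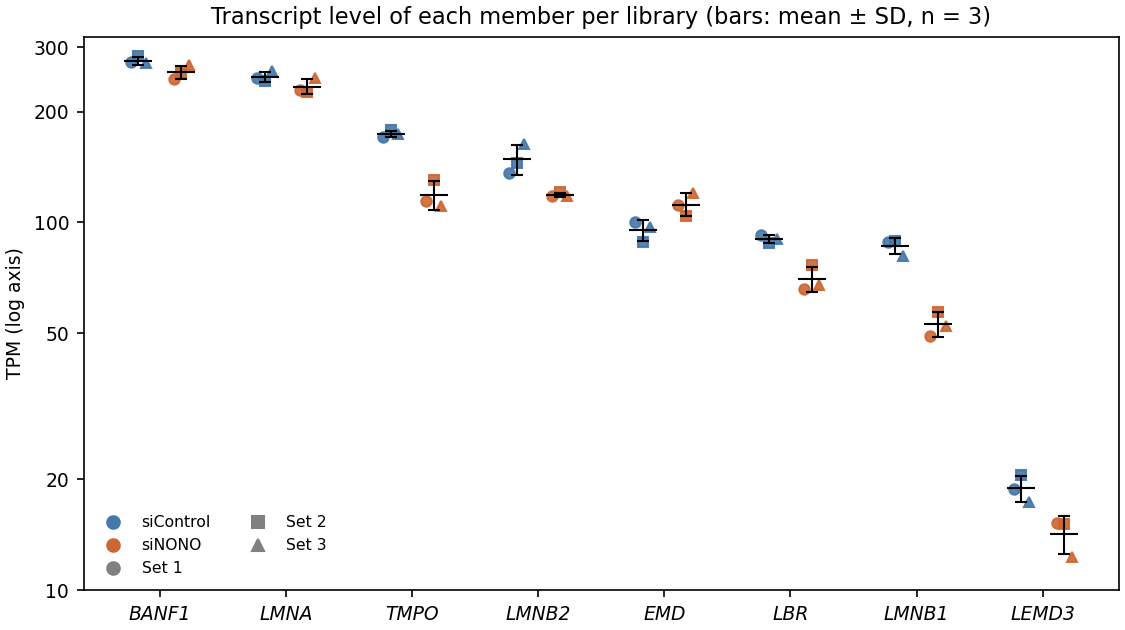
TPM on a log axis (y axis) of each member (x axis, in the order of siControl) in every library, siControl in blue and siNONO in orange, with symbols for the Sets and bars for the mean and SD of 3 libraries. LMNB1 goes from 86.4 to 52.9 TPM and TMPO from 174 to 119 TPM with no overlap, and EMD is the member whose mean is higher in siNONO.

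The promoters of the members were searched for sequence words known from cell-cycle genes, since members that fell and a member that rose could be set side by side. The windows were the 250 bases before each RefSeq gene start on GRCh38.p14, and all 8 members matched. CCAAT, the word read by the factor NF-Y, was searched on both strands (as CCAAT or ATTGG). It was found in a window of 5 of the 8 members, LMNA, LMNB1, TMPO, EMD and LEMD3, and 37.0% of all 27305 genes had it. The words below are given with CCAAT or ATTGG, and TTTCCCGC, in capitals for members that fell (TMPO and LEMD3) and the member that rose (EMD).
TMPO (chr12:98515323-98515572, plus strand): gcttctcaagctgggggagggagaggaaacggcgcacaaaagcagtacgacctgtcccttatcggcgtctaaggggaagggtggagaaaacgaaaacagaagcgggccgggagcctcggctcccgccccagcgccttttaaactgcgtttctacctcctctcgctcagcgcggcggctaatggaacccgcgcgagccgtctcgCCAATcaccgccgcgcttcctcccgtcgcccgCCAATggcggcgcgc
LEMD3 (chr12:65169333-65169582, plus strand): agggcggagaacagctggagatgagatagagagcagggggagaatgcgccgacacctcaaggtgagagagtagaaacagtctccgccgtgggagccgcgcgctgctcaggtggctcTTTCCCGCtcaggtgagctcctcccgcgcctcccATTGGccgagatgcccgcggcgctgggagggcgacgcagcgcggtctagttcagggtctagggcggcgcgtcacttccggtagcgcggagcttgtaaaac
EMD (chrX:154379045-154379294, plus strand): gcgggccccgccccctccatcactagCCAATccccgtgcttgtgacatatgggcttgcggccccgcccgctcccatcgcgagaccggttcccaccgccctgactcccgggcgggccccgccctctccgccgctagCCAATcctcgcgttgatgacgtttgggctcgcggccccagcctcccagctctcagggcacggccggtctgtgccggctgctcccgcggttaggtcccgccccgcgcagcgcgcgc
TMPO and EMD each hold CCAAT in 2 places in the windows shown. TTTGAA (or TTCAAA), the core of the cell cycle genes homology region, was in the window of LMNB2 alone among the members and in 16.1% of all genes. TTTCCCGC (or GCGGGAAA), a form of the E2F site, was in windows of LMNA and LEMD3 and in 1.70% of all genes, and the form TTTGGCGC (or GCGCCAAA) was in none of the members and in 0.681% of all genes. Of the members that fell, LMNB1, TMPO and LEMD3 had CCAAT in a window, and LMNB2 and LBR did not. EMD, which rose, had it, as did LMNA, while BANF1 did not. The part of these words in the changes was not tested. A match is a description of these windows and not a site of binding.

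Other proteins of the nuclear envelope were followed in a list of 18 genes of the inner membrane, the LINC complex (which joins the nucleus to the cytoskeleton) and the torsins. In siNONO, 8 fell, 4 rose and 6 did not pass the test, with a median log2 fold change of -0.15. The share called was 66.7%, against 46.6% of all tested genes. NEMP1, an inner membrane protein that binds emerin, fell most, from 68.1 to 74.2 CPM in siControl to 35.9 to 38.8 CPM in siNONO. Its log2 fold change was -0.93 (adjusted p = 3.56e-09 by edgeR's quasi-likelihood test). LEMD2, another LEM-domain protein of the inner membrane, fell by 0.54 on the log2 scale (adjusted p = 4.21e-06 by the same edgeR test), NEMP2 by 0.47 and ANKLE1 by 0.41. SYNE1, which encodes a nesprin of the outer membrane and was singled out after its values were seen as the highest of the list, rose with a log2 fold change of 0.41 (adjusted p = 0.000155 by the same edgeR test).

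Of the 5 enzymes that process the C-terminal end shown above, ICMT and FNTA passed the test. That is 40% of the list, near the 46.6% of all tested genes. ICMT, which methylates the farnesylated cysteine, fell from 149 to 154 CPM in siControl to 107 to 111 CPM in siNONO (log2 fold change -0.47, adjusted p = 1.38e-07 by edgeR's quasi-likelihood test). FNTA, the alpha subunit of protein farnesyltransferase, rose with a log2 fold change of 0.11 (adjusted p = 0.0476 by the same edgeR test), close to the threshold. FNTB, RCE1 and ZMPSTE24, the protease that matures lamin A, had log2 fold changes from -0.08 to 0.06 and did not pass. The median of the list was 0.05.

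In a list of 22 genes for taking the nuclear envelope apart and rebuilding it in mitosis, 9 fell, 5 rose and 8 did not pass the test, and the median log2 fold change was -0.05. Called genes made up 63.6% of this list and 46.6% of all tested genes. CDCA2, which brings protein phosphatase 1 to chromosomes as the envelope reforms, fell most, with a log2 fold change of -0.88 (adjusted p = 1.13e-08 by edgeR's quasi-likelihood test). The mitotic kinases and cyclin PLK1, CCNB1 and CDK1, which act at the disassembly of the lamina, fell by 0.46, 0.44 and 0.33 on the log2 scale. CDK1 and CDCA2 are also in the list of G2/M genes used below, which does not include PLK1 and CCNB1.

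Among 11 chromatin and transcription partners at the lamina, 4 fell, 1 rose and 6 did not pass the test, with a median of -0.06. At 45.5%, the share called was near that of all tested genes, 46.6%. HDAC3, a histone deacetylase that binds emerin and a TMPO product, was the one that rose, from 43.0 to 45.9 CPM in siControl to 80.5 to 85.3 CPM in siNONO. Its log2 fold change was 0.90 (adjusted p = 2.81e-09 by edgeR's quasi-likelihood test), and the Sets were even at 0.92, 0.88 and 0.89. RB1, the retinoblastoma protein held by A-type lamins and a TMPO product, fell by 0.36 on the log2 scale. The heterochromatin protein 1 genes CBX5 and CBX3, whose products bind LBR, fell by 0.28 and 0.22. CBX5 is also in the list of G2/M genes used below.

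The sterol enzymes that act beside LBR in cholesterol synthesis went mostly the other way from LBR. Of 9 genes, 5 rose, 1 fell and 3 did not pass the test, and the median log2 fold change was 0.23. Thus 66.7% were called, against 46.6% of all tested genes. TM7SF2, which encodes the other sterol reductase with the activity of LBR, had 37.9 to 42.1 CPM in siControl and 47.0 to 54.1 CPM in siNONO. It rose with a log2 fold change of 0.32 (adjusted p = 0.000134 by edgeR's quasi-likelihood test), while LBR fell by 0.32. CYP51A1, the enzyme of the step before, rose with a log2 fold change of 0.38, and HSD17B7 and NSDHL, which act later, with 0.32 and 0.25.

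Transcripts of the G2 and M phases moved with the members that fell. Without LBR and TMPO, which are in this list of 54 genes used to mark cell-cycle phase, 49 of 52 genes fell and none rose, with a median log2 fold change of -0.65. Of these 52 genes 94.2% were called, against 46.6% of all tested genes. The summed level of the 52 genes was 4676 to 4812 TPM in siControl and 2974 to 3158 TPM in siNONO. ANLN, HMGB2, HMMR and NUF2 fell most, with log2 fold changes from -1.25 to -1.08. LMNB1, at -0.69, was close to the median of this list, TMPO at -0.56 and LBR at -0.32 were nearer 0. The part of the G2/M transcripts in the results on the members was not tested.

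Likeness of pattern was measured by Pearson's correlation of log2 CPM over the 6 libraries among 13340 genes, as a description, since with libraries of 2 groups any gene that differs between the groups resembles the others that do. NUSAP1, a microtubule-binding protein of the spindle and one of the G2/M genes, and ZNF2 were the most like LMNB1, both with r = 0.999. ANP32E and CHML were the most like LBR, with r = 0.999 and r = 0.998, and IL13RA1 and ERI2 the most like TMPO, both with r = 0.999. For LMNB2 they were ITGA5 and TRIM47, for LEMD3 CHD2 and NSD3, and for EMD, LANCL2 and HARS1, with r from 0.996 to 0.999. For the members that did not pass the test, they were PLEKHJ1 and DDX51 for LMNA, with r of 0.995 and 0.993, and ORMDL2 and SNORC for BANF1, with r of 0.978 and 0.974.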

How the data were processed

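Per the labels, libraries were prepared with a stranded mRNA kit. The authors trimmed the reads, aligned them with STAR to GRCh37 and ran RSEM (version 1.3.1 in the submitters' processing notes). They deposited for each library and gene the estimated count, which is not normalized and need not be whole because reads that fit several genes are shared, together with TPM, FPKM, length and effective length. The deposited TPM values are scaled for effective length and library size. The deposited FPKM values were not used in a result.

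The deposited counts were rounded and tested for differential expression in edgeR (version 4.0.16, with the legacy quasi-likelihood fit), using filterByExpr, TMM scaling and a block for the Set, because the study's methods name batch as a covariate. P-values were adjusted by Benjamini-Hochberg over 17000 genes, and standard errors were obtained from the F statistic. The fit was tested on simulated counts with 1 dispersion for all genes, no difference between Sets, and planted changes of 1.5-fold and 2-fold. It recovered 79.8% and 90.9% of these, with 11 false calls. Smaller changes, such as those of LMNB2, EMD, LBR and LEMD3, were not tried. CPM used the TMM factors. Libraries held 21765393 to 32659002 counts, and no pair within a group agreed within sampling noise. In both groups the pairs with Set 3 differed most. Such a spread cannot show that the cultures were separate, and each library was used as a replicate because the series labels it so. P-values measure the spread between these libraries, which may be technical. Ratios and lengths were compared by exact two-sided permutation tests (scipy, version 1.17.1). No column belonged to samples of another series.

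The 8 members and all gene lists were chosen with earlier results of these data known. A gene of the SMAD target list, taken out after its values were seen but not because of them, and a lamin coding end are not reported here. The text names the members and NONO, at most 4 called genes of each list by size of change (and SYNE1, chosen after its values were seen), related genes with counts, and the 2 genes most like each member. Gene names matched 62211 of 62492 identifiers. Coordinates and coding ends were read from GRCh37 with GENCODE version 44, which is later than the annotation the authors used, and promoter windows from RefSeq on GRCh38.p14, cut to the bases before the start. Alternatives were other scalings and filters, no block, DESeq2 (version 1.42.0), limma (version 3.58.1) on log2(TPM + 1) and log2(TPM + 0.1), effective length, and each library left out in turn.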

Additional observations from a re-analysis of the deposited data

How the results depend on the processing

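The 5 members that fell and the 1 that rose were called in the same direction in all 16 alternatives, with log2 fold changes from -0.71 to -0.65 for LMNB1, -0.58 to -0.54 for TMPO, -0.42 to -0.31 for LEMD3, -0.37 to -0.29 for LBR, -0.31 to -0.16 for LMNB2 and 0.23 to 0.32 for EMD. The values furthest below 0 for LMNB2 came from the TPM scales. On these RSEM's length enters, and the median of all genes was lower too. The part of each was not tested. LMNA and BANF1 were called in no alternative, and their sign varied. LMNA was at -0.0021 with library size alone, -0.090 on log2(TPM + 1) and -0.090 on log2(TPM + 0.1), -0.013 without siControl Set 3 and -0.016 without siNONO Set 3, between -0.016 and 0.042 over the fits without one library, and its adjusted p lay between 0.0780 and 0.965. BANF1 was at 0.0015 with no filter, and at 0.013 and 0.012 without siControl Set 1 or 2 and 0.010 and 0.0012 without siNONO Set 1 or 2, between -0.056 and 0.013 over such fits, and its adjusted p lay between 0.0972 and 0.998. The median of all genes was -0.07 and -0.09 on the 2 TPM scales.

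The number of genes called was 7924. DESeq2 with the Set as a block called 5227, limma on log2(TPM + 1) 5257 and limma on log2(TPM + 0.1) 5250. On the TPM scales, 31.3% and 31.2% of these were higher, while edgeR gave 49.7%, and the cause was not tested. Without one library, 6497 to 7653 genes were called. Without the replicate block, 6164 genes were called, and the block changed no call of a member. Libraries of the same Set deviated together with correlations of 0.248, 0.0839 and 0.327 across 13340 genes, and of 0.537, 0.286 and 0.577 across the 9108 genes whose average log2 CPM reached 4. Over the larger set of genes Set 2 was under 0.1, and siNONO Set 2 correlated more with siControl Set 1, at 0.115, so the pairing of Set 2 was unclear there. Sets 1 and 3 correlated best within the Set over both sets of genes.

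Without one library, the log2 difference ran from 0.57 to 0.70 for LMNA to LMNB1, 0.18 to 0.28 for LMNA to LMNB2 and -0.51 to -0.32 for LMNB1 to LMNB2, and the difference in mean length from -153 to -89.3 bases for LMNB1. The mean lengths of LMNB2 and LBR changed sign without siNONO Set 3, to -56.0 and 8.12 bases, in ranges from -56.0 to 209 and from -256 to 8.12 bases without one library, and that of BANF1 was -1.23 bases by effective length. With 3 libraries a group, the permutation tests of ratios and lengths could not reach 0.05.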

Other observations

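Target genes of pathways that act through proteins of the nuclear envelope were also measured. A list held target genes of SMAD proteins, which MAN1 (LEMD3) binds. A gene was taken out of it with its values known, which left 7. By edgeR's quasi-likelihood test 4 rose, 2 fell and 1 did not pass, with a median log2 fold change of 0.18. The share called was 85.7% of these 7 genes, against 46.6% of all tested genes. SMAD7, an inhibitory SMAD, had 5.95, 4.09 and 4.92 CPM in siControl Sets 1 to 3 and 8.39, 7.98 and 8.69 CPM in siNONO, and it rose with a log2 fold change of 0.74 (adjusted p = 0.000173 by the edgeR test). BAMBI, a decoy receptor of the TGF-beta family, rose with a log2 fold change of 0.52 (adjusted p = 0.00156 by the edgeR test). ID1 and ID3, targets of BMP signalling, fell by 0.64 and 0.75 on the log2 scale, so the list did not move in one direction.

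Among 9 targets of SRF and its partner MRTF, whose entry into the nucleus depends on emerin and lamin A, 2 rose, 3 fell and 4 did not pass the test, with a median log2 fold change of -0.07. Here 55.6% were called, against 46.6% of all tested genes. FHL2, a LIM-domain protein, rose with a log2 fold change of 0.57 (adjusted p = 9.58e-07 by edgeR's quasi-likelihood test). VCL, which encodes the focal adhesion protein vinculin, fell by 0.56, CCN1 by 0.24 and ACTG1 by 0.20 on the log2 scale.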
